A study of Homo sapiens with 12 samples.

Results

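Heparan sulfate proteoglycans are cell-surface proteins that carry long sulfated sugar chains, and the endosulfatases edit those chains after they reach the surface. Transcripts of 10 genes of this family were followed in IMR32 neuroblastoma cells in which MYCN, HAND2 or both had been knocked down: the endosulfatases SULF1 and SULF2, the glypicans GPC1, GPC2, GPC3, GPC4 and GPC6, and the syndecans SDC1, SDC2 and SDC3. The family was chosen because SULF2 is among the genes that fell most in the combined knockdown, so it was chosen by the values of SULF2 in that contrast. The other members were taken by gene symbol from the deposited table, which lists 27514 genes. Of the 10 members, 8 had a mean of at least 1 CPM (reads scaled to the total reads of the library) over the 12 libraries and entered the tests, which covered 12680 genes. SULF1 and GPC4 did not.

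Glypicans are tethered to the outer membrane by a lipid anchor and syndecans span it, and both present growth factors, Wnt proteins and guidance cues to their receptors through their heparan sulfate chains. SULF1 and SULF2 are secreted or surface enzymes that remove 6-O-sulfate groups from these chains, which releases some bound ligands and weakens the binding of fibroblast growth factors to their receptors. In neuroblastoma, GPC2 is known as a surface antigen pursued for immunotherapy.

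IMR32 is a human neuroblastoma line with amplified MYCN, and all libraries come from this 1 line. By Nucleofector electroporation the cells took up control siRNA (siCtrl), siRNA to MYCN (siMYCN) or to HAND2 (siHAND2), or the MYCN and HAND2 siRNAs at once (siMYCN+siHAND2, the combined knockdown), and total RNA was taken after 72 h. MYCN encodes a MYC-family transcription factor and HAND2 a basic helix-loop-helix factor of the sympathetic lineage. The sample titles carry 1 label per target, SiMYCN_2 and SiHAND2_3, with SiM2+SiH2_3 for the combined group. If each label is 1 siRNA, effects of the target and off-target effects of that siRNA cannot be told apart. There were 3 libraries in each of the 4 groups. The labels do not say that they came from separate cultures, so the p-values measure the spread between these libraries, which may be technical.

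The libraries held 31.6 to 64.2 M reads, as estimated from the CPM worth of 1 read, and 3 reads corresponded to 0.0468 to 0.0949 CPM. The listed genes took 65.1% ± 0.74 (SD, n = 3) of the reads in siCtrl, 62.4% ± 0.98 under siMYCN, 59.4% ± 2.39 under siHAND2 and 51.4% ± 7.04 in the combined knockdown. Some falls and rises relative to siCtrl are therefore given also after each library was put on a common scale by the median of its gene-wise ratios to the average library (rescaled values). The others, with the summed signals per kilobase, are on deposited CPM only and depend on that scale. Rescaling moved the median log2 difference of all tested genes between the combined knockdown and siCtrl from −0.28 to 0.047. MYCN transcripts stood at 1009 CPM ± 42.6 in siCtrl, 682 ± 22.8 under siMYCN, 849 ± 48.7 under siHAND2 and 482 ± 64.3 in the combined knockdown. HAND2 stood at 239 CPM ± 15.3, 326 ± 7.50, 62.3 ± 7.06 and 73.5 ± 11.1 in the same order, so the siMYCN libraries held more HAND2 transcript than siCtrl (log2 change 0.44, limma adjusted p = 0.0062). Rescaled, MYCN was at 68.0%, 93.9% and 61.0% of siCtrl under siMYCN, siHAND2 and the combined knockdown. Rescaled HAND2 was at 137%, 29.1% and 39.2% of siCtrl in that order. Of the markers that define adrenergic neuroblastoma cells, 9 of 10 had a mean of at least 1 CPM. Each of the 3 immune markers had a mean over the 12 libraries under 0.0949 CPM, the largest worth of 3 reads. Of 6 fibroblast markers, COL1A2 and DCN had such means under that worth. The summed fibroblast level was 15.6 to 18.6 CPM in siCtrl and 14.6 to 15.2 under siMYCN. It was 8.00 to 8.29 CPM under siHAND2 and 3.56 to 5.44 in the combined knockdown. The summed adrenergic markers went from 1698 to 1813 CPM in siCtrl to 962 to 1351 in the combined knockdown. That sum includes the targeted MYCN and HAND2, with MYCN alone at 1009 CPM in siCtrl. Its fall therefore contains the knockdown itself and is not a reading of cell type. Summed levels of 3 endothelial markers were 0.551 to 0.776 CPM in siCtrl and 2.05 to 2.82 under siMYCN. They were 0.886 to 1.45 under siHAND2 and 1.19 to 1.92 in the combined knockdown. The mean of PECAM1 over the 12 libraries was under 0.0949 CPM. Summed Schwann cell markers were at 1.79 to 1.87 CPM in siCtrl and 2.88 to 3.61 under siMYCN. They were at 2.25 to 2.55 under siHAND2 and 2.80 to 3.54 in the combined knockdown. The part of these markers in the results was not tested. Fewer cells of a type and less RNA per cell cannot be told apart in these libraries.

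Among the members, SULF2 and SDC1 were lower in both single knockdowns, GPC2 was higher in both, and SDC2 moved in opposite directions. In siMYCN against siCtrl, 4 of the 8 tested members were called (limma adjusted p under 0.05), SDC2 and GPC2 higher and SULF2 and SDC1 lower. Over all tested genes 33.7% were called in that comparison, 17.4% higher and 16.3% lower. In siHAND2 against siCtrl, 6 of 8 were called, GPC2 higher and SULF2, SDC2, SDC1, GPC1 and GPC3 lower, where 42.7% of all tested genes were called, 12.3% higher and 30.4% lower. After rescaling, the calls over all tested genes under siHAND2 were 3301 higher and 3146 lower, in place of 1556 and 3855, and those of the members 1 higher and 4 lower. The median log2 difference of the 8 members was −0.15 under siMYCN and −0.55 under siHAND2, beside 0.0056 and −0.14 over all tested genes.

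The sequences upstream of SULF2, SDC1 and GPC2 are shown because these 3 members were called in the same direction in each single knockdown, the first pair lower and GPC2 higher. They were picked after their values were seen. MYC-family and HAND-family factors bind versions of the E-box, CANNTG, which reads the same on both strands. Each run is the 250 bases of the GRCh37 build before the gene start listed in the deposited table. It is written 5′ to 3′ on the gene's own strand, with CANNTG in capitals.
SULF2 (chr20:46415362-46415611, minus strand): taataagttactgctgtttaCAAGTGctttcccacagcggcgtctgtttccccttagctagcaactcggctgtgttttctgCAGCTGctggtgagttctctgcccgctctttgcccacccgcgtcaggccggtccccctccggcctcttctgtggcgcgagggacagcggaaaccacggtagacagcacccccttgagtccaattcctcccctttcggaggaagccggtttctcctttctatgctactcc
SDC1 (chr2:20425196-20425445, minus strand): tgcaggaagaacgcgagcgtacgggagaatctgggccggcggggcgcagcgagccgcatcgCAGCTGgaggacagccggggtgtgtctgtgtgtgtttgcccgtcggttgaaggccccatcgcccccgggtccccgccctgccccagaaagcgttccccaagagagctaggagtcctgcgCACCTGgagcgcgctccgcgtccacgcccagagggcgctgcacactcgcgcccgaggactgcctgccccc
GPC2 (chr7:99775051-99775300, minus strand): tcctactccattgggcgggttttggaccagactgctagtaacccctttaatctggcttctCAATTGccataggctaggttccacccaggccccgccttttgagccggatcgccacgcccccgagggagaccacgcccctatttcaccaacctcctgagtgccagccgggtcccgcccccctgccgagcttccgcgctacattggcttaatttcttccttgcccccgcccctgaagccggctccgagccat
The SULF2 window holds 2 E-boxes, CAAGTG starting 230 bases and CAGCTG starting 169 bases before the gene start. The SDC1 window also holds 2, CAGCTG at 189 and CACCTG at 70 bases. GPC2 has 1, CAATTG at 190 bases. Of the other members, GPC3 and SULF1 have 1 each, and GPC1, GPC4, GPC6, SDC2 and SDC3 have none. The MYC-type form CACGTG was in none of the 10 windows. The form CATCTG was not there either, nor was its reverse complement, which is searched for as CAGATG. These forms are themselves cases of the general E-box. Over 27444 windows of the same length before listed genes, 61.9% held CANNTG, 6.33% held CACGTG and 11.7% held CATCTG or CAGATG, so an E-box in such a window is common. These matches describe letters, not binding.

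SULF2 supplied nearly all endosulfatase transcript. The gene lies at chr20:46286150-46415361 in GRCh37. Its level was 86.4, 90.2 and 75.4 CPM in the siCtrl libraries, 45.8, 46.7 and 35.5 under siMYCN, 15.3, 15.5 and 11.7 under siHAND2, and 9.90, 7.46 and 3.68 in the combined knockdown. The 4 groups did not overlap, and replicate 3 was the lowest of each group. The means were 84.0 CPM ± 7.69 in siCtrl, 42.6 ± 6.20 under siMYCN, 14.2 ± 2.16 under siHAND2 and 7.01 ± 3.13 in the combined knockdown, or 50.8%, 16.8% and 8.35% of siCtrl in the knockdowns. On rescaled values the same shares were 51.1%, 18.8% and 10.3%.

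The log2 change of SULF2 was −0.97 (SE 0.19, limma adjusted p = 3.0e-04) under siMYCN and −2.49 (SE 0.19, limma adjusted p = 1.2e-10) under siHAND2. Both tests share their siCtrl libraries with the contrast that chose the family. The difference between the single knockdowns uses none of the combined or control libraries as a group, and there SULF2 was lower by 1.53 on the log2 scale under siHAND2 than under siMYCN (SE 0.19, limma adjusted p = 6.5e-07). In the combined knockdown the log2 difference from siCtrl was −3.49, a 12.0-fold lower mean level, given as a description because it chose the gene. The departure from the sum of the single log2 changes was −0.025 (SE 0.27), also without a test. It was 0.13 after rescaling, and −0.29 to 0.32 with each library left out in turn.

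**Figure D1:**
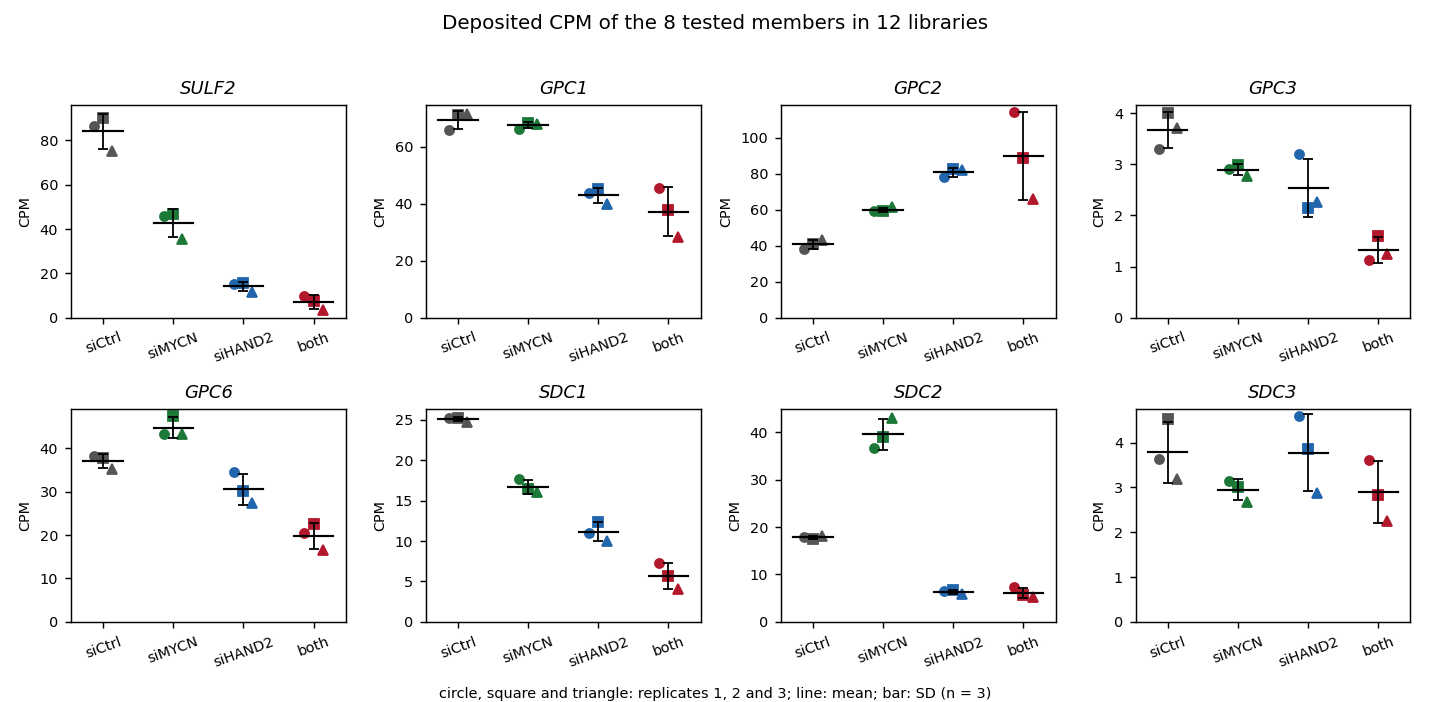
Deposited CPM of the 8 tested members (vertical axes, from 0) in the 4 groups, where "both" is the combined knockdown. Each point is 1 library, with replicates 1, 2 and 3 as circle, square and triangle, the line is the mean and the bar the SD (n = 3). SULF2 steps down from 84.0 to 42.6, 14.2 and 7.01 CPM, and GPC2 steps up from 40.7 to 59.9, 81.0 and 89.9 CPM.

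SULF1, the other endosulfatase, was at the edge of detection. It ranged from 0 to 7 estimated reads per library, or 0.0001 to 0.206 CPM, where 0.0001 is the constant the table holds for a gene without reads. In siCtrl it had 4, 0 and 4 reads, under siMYCN 1, 0 and 2, under siHAND2 0, 7 and 5, and in the combined knockdown 2, 6 and 2. The groups overlap and no fold is given at these counts. Per kilobase of transcript, SULF2 made up at least 98.6% of the summed SULF1 and SULF2 signal in every library, so the summed endosulfatase signal followed SULF2, at 22.1, 11.2, 3.74 and 1.86 CPM per kilobase in siCtrl, siMYCN, siHAND2 and the combined knockdown.

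By a rule of likeness, the genes whose log2 levels followed SULF2 most closely over the 12 libraries, among 10186 genes with a mean of at least 5 CPM, were TRAF5, ST5, CCKAR, GNB4 and DCLRE1A. Their Pearson correlations with SULF2 ran from 0.99 to 1.00 (0.990 for DCLRE1A and 0.996 for TRAF5). The points share libraries and depth, and correlations this high among this many genes over 4 separated groups are a description only. CCKAR, the receptor for the gut and brain peptide cholecystokinin, stood at 29.9 CPM ± 0.56 in siCtrl, 17.3 ± 0.81 under siMYCN, 6.09 ± 1.01 under siHAND2 and 2.90 ± 0.89 in the combined knockdown. TRAF5, a signalling adaptor of the tumour necrosis factor receptor family, had a shallower course of 22.0, 17.4, 13.3 and 10.9 CPM.

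Among the glypicans, GPC1 and GPC2 carried most of the signal per kilobase, and their order was turned over. GPC1 (chr2:241375115-241407496) is the glypican of many adult and tumour tissues and a co-receptor for fibroblast growth factors. Its level was 65.9, 71.1 and 71.5 CPM in siCtrl and 66.3, 68.3 and 68.2 under siMYCN, and these groups overlap. It was 43.9, 45.1 and 39.8 CPM under siHAND2 and 45.6, 37.7 and 28.4 in the combined knockdown, all below every siCtrl and siMYCN library. The log2 change was −0.038 under siMYCN (95% interval −0.30 to 0.23, limma adjusted p = 0.85) and −0.68 under siHAND2 (SE 0.13, limma adjusted p = 1.3e-04). Rescaled, these changes were −0.028 and −0.53. The table also lists MIR149 within GPC1 on the same strand and PP14571 on the other strand, and whether reads were counted by strand is not given in the sources used here.

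GPC2 (chr7:99767229-99775050), which is largely a glypican of the developing nervous system, was higher in each single knockdown by the test, and these tests share the siCtrl libraries. It had 38.2, 41.0 and 43.0 CPM in siCtrl, 59.1, 59.3 and 61.4 under siMYCN and 78.1, 82.7 and 82.1 under siHAND2, and these 3 groups did not overlap. The combined libraries were spread at 115, 88.9 and 66.2 CPM, above all siCtrl and siMYCN libraries but on both sides of siHAND2. The log2 change was 0.55 under siMYCN (SE 0.14, limma adjusted p = 0.0031) and 0.97 under siHAND2 (SE 0.14, limma adjusted p = 2.9e-06). Rescaling left the combined libraries less spread, at 103 ± 12.5 against 82.5 ± 4.73 under siHAND2 and 37.1 ± 2.5 in siCtrl.

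The ratio of GPC2 to GPC1 within a library does not depend on any scaling of the library. It was 0.580, 0.576 and 0.602 in siCtrl, 0.891, 0.867 and 0.900 under siMYCN, 1.78, 1.83 and 2.06 under siHAND2, and 2.51, 2.36 and 2.33 in the combined knockdown. The 4 groups did not overlap. The mean ratio was 1.51-fold higher under siMYCN and 3.22-fold higher under siHAND2 than in siCtrl. With 3 against 3 libraries the exact permutation test, two-sided, gives no p below 0.1, which is the value for each of these (adjusted p = 0.1125 over the 9 ratio comparisons made). The ratios were chosen after the members' values were seen.

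GPC6 (chr13:93879061-95060274), a glypican known from skeletal and heart development, had 38.2, 37.7 and 35.2 CPM in siCtrl, 43.2, 47.5 and 43.3 under siMYCN, 34.4, 30.0 and 27.3 under siHAND2, and 20.5, 22.4 and 16.6 in the combined knockdown. On the deposited values the groups did not overlap. The log2 change was 0.26 under siMYCN (95% interval 0.019 to 0.51, limma adjusted p = 0.091) and −0.27 under siHAND2 (95% interval −0.52 to −0.028, limma adjusted p = 0.066). Neither was called in the main fit, which has no block for the replicate number. The siMYCN value was called with the replicate number as a block (limma adjusted p = 0.047) and after rescaling (limma adjusted p = 0.013). The siHAND2 value shrank to −0.12 after rescaling (limma adjusted p = 0.24). Rescaled, siHAND2 replicate 1 (34.2 CPM) lay within the range of the siCtrl libraries (32.4 to 34.6 CPM). The single knockdowns differed from each other by −0.54 (siHAND2 minus siMYCN, SE 0.12, limma adjusted p = 9.8e-04). GPC6-AS1 and GPC6-AS2 are listed on the other strand within this gene.

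GPC3 (chrX:132669776-133119674), an oncofetal glypican that modulates Wnt and Hedgehog signalling, was low at 3.30, 3.99 and 3.71 CPM in siCtrl, 2.90, 2.99 and 2.78 under siMYCN, 3.20, 2.15 and 2.26 under siHAND2 and 1.12, 1.61 and 1.24 in the combined knockdown. The combined libraries were below all others, and the siHAND2 libraries overlapped siMYCN. Its fall under siHAND2, of −0.41 on the log2 scale (limma adjusted p = 0.011), was not called after rescaling (−0.29, limma adjusted p = 0.072) or without siCtrl replicate 2 (limma adjusted p = 0.056), siHAND2 replicate 2 (0.073) or siHAND2 replicate 3 (0.054). GPC4, which also binds growth factors and Wnt proteins, had 5 to 19 estimated reads per library. Its level was 0.297 to 0.468 CPM in siCtrl, 0.211 to 0.371 under siMYCN, 0.286 to 0.475 under siHAND2 and 0.109 to 0.195 in the combined knockdown, and it was not tested.

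Per kilobase of transcript, the summed glypican signal was 41.6 ± 1.69 CPM per kilobase in siCtrl, 49.3 ± 0.76 under siMYCN, 48.8 ± 1.02 under siHAND2 and 48.7 ± 12.1 in the combined knockdown. Its make-up shifted within that sum. GPC1 gave 44.9% ± 0.24 of it in siCtrl, 36.9% ± 0.08 under siMYCN, 23.6% ± 1.09 under siHAND2 and 20.6% ± 0.37 in the combined knockdown. GPC2 gave 38.5% ± 0.92, 47.7% ± 0.81, 65.1% ± 2.28 and 72.2% ± 1.72 in the same order. GPC2 thus lay below GPC1 per length in every siCtrl library and above it in all others. The share of GPC6 was 12.5%, 12.7%, 8.79% and 5.85%, and GPC3 and GPC4 together made up the small remainder.

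The syndecans divided between the knockdowns. SDC1 (chr2:20400558-20425195), the syndecan typical of epithelia and plasma cells, went down in each. Its level was 25.2, 25.2 and 24.7 CPM in siCtrl, 17.6, 16.4 and 16.1 under siMYCN, 10.98, 12.4 and 10.02 under siHAND2, and 7.23, 5.62 and 4.07 in the combined knockdown, and the groups did not overlap. The log2 change was −0.56 under siMYCN (SE 0.13, limma adjusted p = 0.0019) and −1.11 under siHAND2 (SE 0.13, limma adjusted p = 2.6e-07), and siHAND2 was lower than siMYCN (−0.55, limma adjusted p = 0.0021). Rescaled, the changes from siCtrl were −0.55 under siMYCN and −0.95 under siHAND2. Across the 12 libraries SDC1 was also the member closest to SULF2, with a Pearson correlation of 0.98 on log2 values that share libraries and depth.

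SDC2, a syndecan of mesenchymal and neural cells that lies on chromosome 8, had the largest log2 difference between the single knockdowns of the 8 tested members. It had 17.9, 17.4 and 18.1 CPM in siCtrl, 36.7, 38.9 and 43.0 under siMYCN, 6.55, 6.71 and 5.88 under siHAND2, and 7.36, 5.73 and 5.27 in the combined knockdown. All siMYCN libraries lay above siCtrl and all siHAND2 libraries below it, and the combined libraries overlapped siHAND2. The mean was 222% of siCtrl under siMYCN and 35.8% under siHAND2. The log2 change was 1.10 under siMYCN (SE 0.12, limma adjusted p = 6.5e-08) and −1.35 under siHAND2 (SE 0.12, limma adjusted p = 9.2e-10), and the difference between the single knockdowns was −2.46 (limma adjusted p = 8.2e-15). Rescaled, the changes from siCtrl were 1.11 under siMYCN and −1.20 under siHAND2.

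SDC3 (chr1:31342313-31381481), the syndecan of neurons, was low, at 3.63, 4.52 and 3.19 CPM in siCtrl, 3.14, 3.01 and 2.68 under siMYCN, 4.59, 3.86 and 2.88 under siHAND2 and 3.62, 2.82 and 2.24 in the combined knockdown. The siHAND2 and combined libraries overlapped each other and both other groups, and the siMYCN libraries lay just below siCtrl. The log2 change was −0.27 under siMYCN (95% interval −0.57 to 0.027, limma adjusted p = 0.16) and −0.0083 under siHAND2 (95% interval −0.31 to 0.29, limma adjusted p = 0.97), the latter changing sign after rescaling to 0.12. MIR5096 is listed within SDC3 on the other strand.

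**Figure D2:**
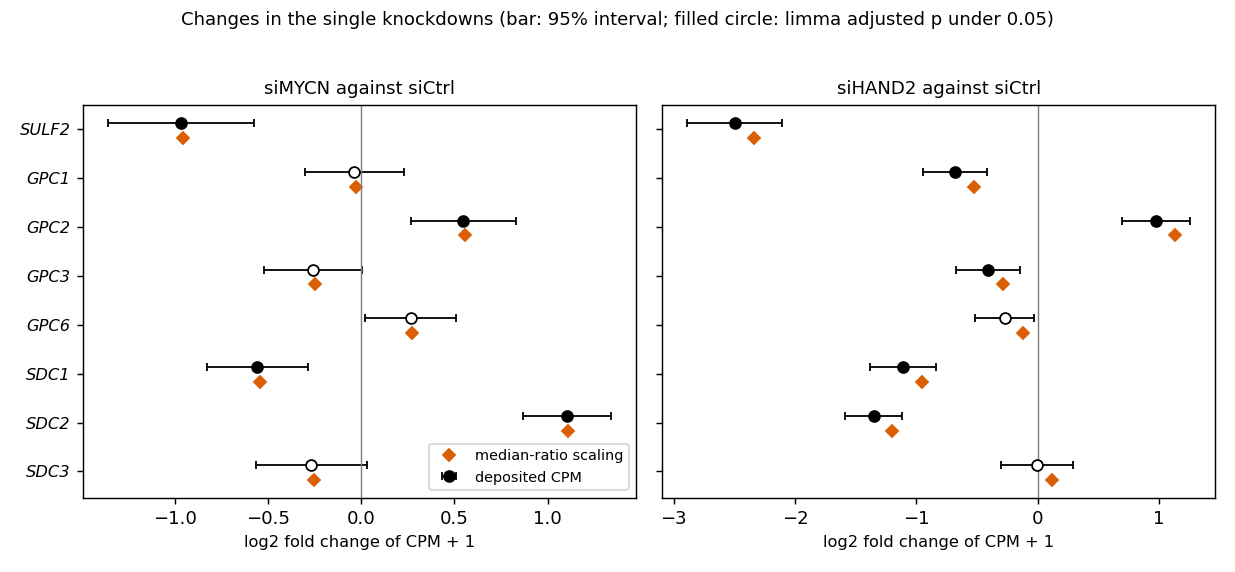
Log2 fold change of CPM + 1 for each tested member (rows) under siMYCN and siHAND2 against siCtrl. Circles are the deposited CPM with 95% intervals, filled where the limma adjusted p is under 0.05, and diamonds are the values after median-ratio scaling. SDC2 lies at 1.10 under siMYCN and −1.35 under siHAND2, and SULF2 at −0.97 and −2.49.

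The ratio of SDC2 to SDC1 within a library was 0.711, 0.691 and 0.733 in siCtrl, 2.08, 2.38 and 2.68 under siMYCN, 0.597, 0.543 and 0.587 under siHAND2, and 1.02, 1.02 and 1.29 in the combined knockdown. The siMYCN libraries were highest and the siHAND2 libraries lowest, with no overlap between groups. The ratio was 3.32-fold higher under siMYCN than in siCtrl and 0.808 of siCtrl under siHAND2, each with an exact permutation p of 0.1, the smallest possible. The summed syndecan signal was 14.0 ± 0.09 CPM per kilobase in siCtrl, 17.8 ± 0.71 under siMYCN, 6.16 ± 0.60 under siHAND2 and 4.18 ± 0.95 in the combined knockdown. SDC1 gave 56.4% of it in siCtrl, 29.7% under siMYCN, 57.0% under siHAND2 and 42.3% with both siRNAs, and SDC2 gave 38.4%, 67.1%, 31.4% and 44.6%, so SDC2 led per length only under siMYCN by more than the spread. SDC3 gave 5.14% of it in siCtrl and 13.2% in the combined knockdown.

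**Figure D3:**
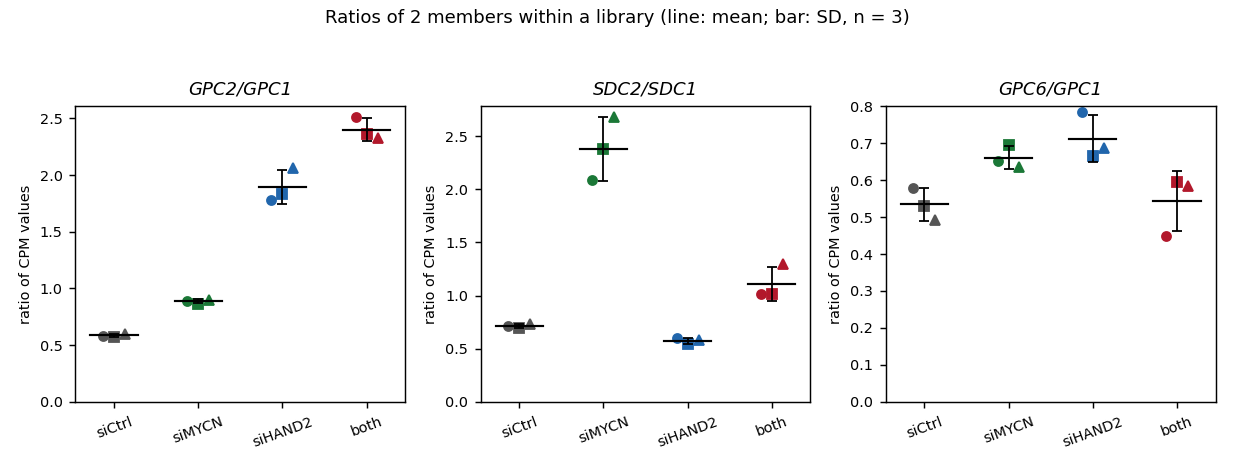
Ratio of the CPM of a pair of members within each library (vertical axes, from 0) in the 4 groups, with the mean as a line and the SD as a bar (n = 3). GPC2 to GPC1 runs from 0.586 in siCtrl to 2.40 in the combined knockdown, SDC2 to SDC1 is highest under siMYCN at 2.38, and the group means of GPC6 to GPC1 lie between 0.534 and 0.712, with single libraries from 0.450 to 0.784.

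Compared directly, siHAND2 and siMYCN differed by the test in 6 of the 8 members (all but GPC3 and SDC3), against 35% of all tested genes. Of all tested genes, 8.98% were called higher and 26.1% lower under siHAND2 than under siMYCN. GPC2 was higher under siHAND2 (0.43, limma adjusted p = 0.017), and SULF2, SDC2, GPC1, SDC1 and GPC6 were lower. After rescaling the members' calls were 2 higher and 5 lower, since SDC3 was then higher under siHAND2 (0.37, limma adjusted p = 0.024). Rescaled calls over all tested genes were 2821 higher and 2830 lower. The call for GPC2 was not made without a filter on low values (limma adjusted p = 0.070) or without siMYCN replicate 1 (0.054), siMYCN replicate 2 (0.055) or siHAND2 replicate 2 (0.058).

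In the combined knockdown, the members other than SULF2 were compared with each single knockdown. Against siMYCN, 6 of 7 were called beside 58.9% of all tested genes, 8.92% higher and 50% lower. After rescaling the members' calls were 1 higher and 5 lower, and those over all tested genes 3820 higher and 3369 lower. On the deposited values the members went as follows. SDC2, SDC1, GPC6, GPC1 and GPC3 were lower, with log2 differences of −2.52, −1.44, −1.14, −0.87 and −0.75 and limma adjusted p from 4.5e-15 to 2.5e-05, and GPC2 was higher (0.54, limma adjusted p = 0.0016). SDC3 was at −0.032 (95% interval −0.33 to 0.27, limma adjusted p = 0.86).

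Against siHAND2, 3 of 7 were called beside 40.3% of all tested genes, 8.75% higher and 31.5% lower. SDC1 was lower (−0.89, limma adjusted p = 9.8e-06), as were GPC6 and GPC3 (−0.60 each, limma adjusted p = 2.7e-04 and 6.0e-04). GPC2 was at 0.11 (limma adjusted p = 0.53) and at 0.31 after rescaling (limma adjusted p = 0.0051), which gave 1 higher and 3 lower calls. Rescaled calls over all tested genes were 3312 higher and 2993 lower. SDC2 was at −0.062 (95% interval −0.30 to 0.18, limma adjusted p = 0.70) and GPC1 at −0.22 (95% interval −0.49 to 0.043, limma adjusted p = 0.17). Without replicate 1 of the combined knockdown, the library with the highest share of reads in listed genes in that group, GPC1 and SDC3 were also called and the count was 5 of 7.

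Against siCtrl the combined values are a description with no test, since this contrast chose the family. The log2 differences were −3.49 for SULF2, −2.0 for SDC1, −1.41 for SDC2, −1.01 for GPC3, −0.91 for GPC1, −0.88 for GPC6, −0.30 for SDC3 and 1.09 for GPC2. Rescaled, the same values were −3.17, −1.68, −1.09, −0.77, −0.55, −0.53, −0.031 and 1.44. GPC2 was thus alone in standing higher than siCtrl. Over all tested genes 67.4% were called in this contrast, 17.4% higher and 50.1% lower, and after rescaling the calls were 4792 higher and 4178 lower.

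The interaction term asks whether the combined log2 change departs from the sum of the single changes. It was called for 2 of the 7 members, beside 4.01% of all tested genes, 0.355% with a positive and 3.65% with a negative term. For SDC2 it was −1.17 (SE 0.16, limma adjusted p = 1.1e-04), and its combined libraries overlapped siHAND2 and lay below siMYCN. For GPC6 it was −0.87 (SE 0.17, limma adjusted p = 0.0034), where values of 0.26 and −0.27 in the single knockdowns stood beside −0.88 in the combined one. The other 5 were not called, with GPC2 at −0.43 (95% interval −0.83 to −0.033, limma adjusted p = 0.20), GPC3 at −0.34 (0.27), SDC1 at −0.33 (0.29), GPC1 at −0.19 (0.55) and SDC3 at −0.024 (0.95). The median interaction over all tested genes was −0.18 and −0.0088 after rescaling, where SDC2 and GPC6 remained called. Without replicate 1 of the combined knockdown, GPC2 (−0.62, limma adjusted p = 0.0073) and SDC1 (−0.50, limma adjusted p = 0.021) were called as well, and calls over all tested genes rose from 508 to 4445.

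**Figure D4:**
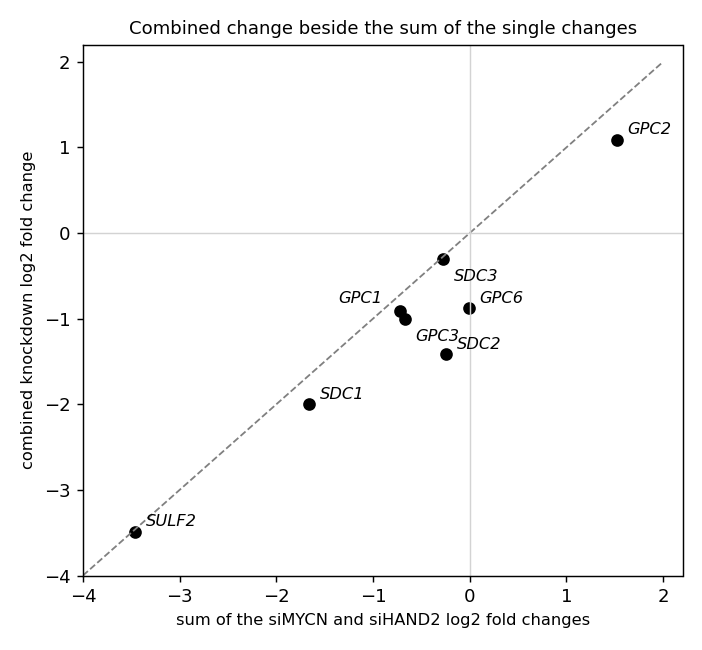
Log2 difference between the combined knockdown and siCtrl (vertical axis) against the sum of the log2 changes of siMYCN and siHAND2 (horizontal axis), both on CPM + 1, for the 8 tested members. All values share the siCtrl libraries, and the dashed line marks equality. SULF2 lies on the line at −3.49, and SDC2 and GPC6 lie below it by 1.17 and 0.87.

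The other genes of heparan sulfate metabolism and signalling were taken as 13 lists of 115 genes, of which 78 were tested. In siMYCN, 23 of 78 (29.5%) were called, 16 higher and 7 lower, and under siHAND2, 30 of 78 (38.5%), 10 higher and 20 lower. These shares lie near or below the 33.7% and 42.7% of all tested genes. Rescaled, the siHAND2 calls were 21 higher and 18 lower, and the siMYCN calls 27 and 10. Over all tested genes the rescaled calls were 3301 higher and 3146 lower under siHAND2, and 3222 and 2843 under siMYCN. The median log2 difference over the 78 genes was 0.043 under siMYCN and −0.057 under siHAND2.

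**Figure D5:**
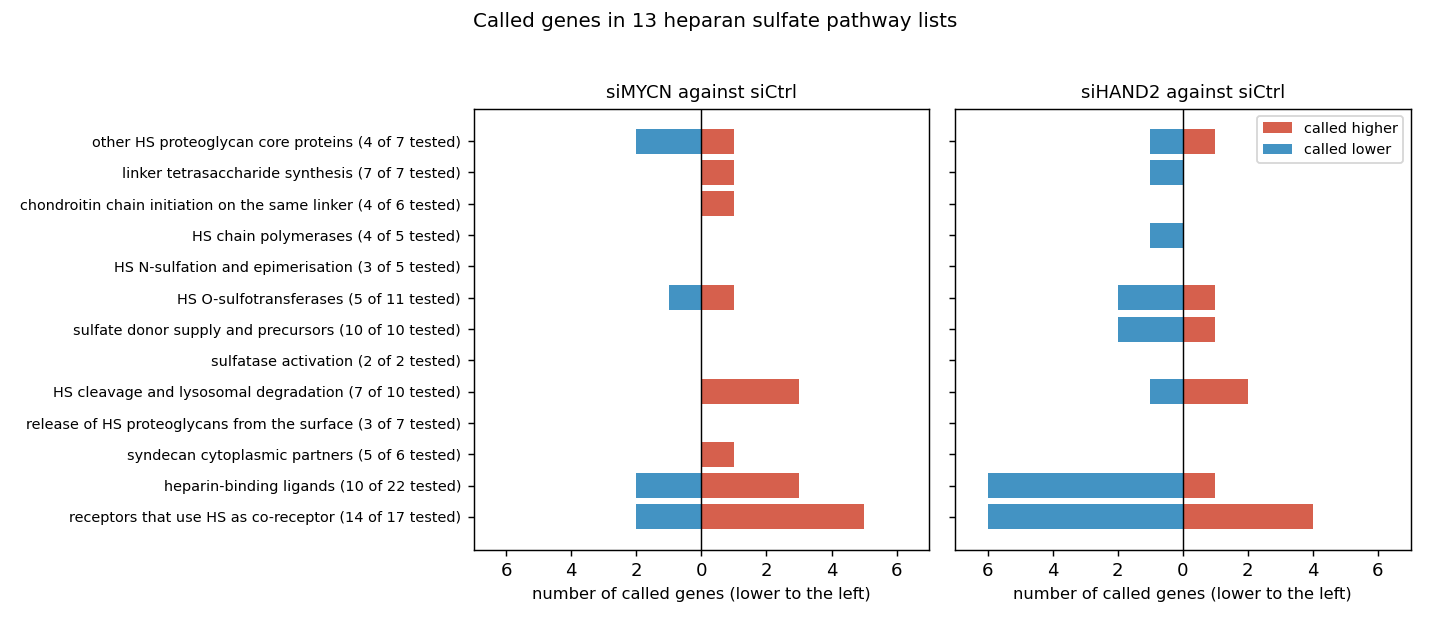
Number of called genes (limma adjusted p under 0.05) in each of the 13 lists, with higher genes to the right and lower genes to the left of 0, for siMYCN and siHAND2 against siCtrl. The number of tested genes of each list is given beside its name. The ligand list holds 5 and the receptor list 7 of the 23 calls under siMYCN, and they hold 7 and 10 of the 30 under siHAND2.

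Of the other core proteins, AGRN, the heparan sulfate proteoglycan that organises the neuromuscular synapse, rose by 1.05 on the log2 scale under siHAND2 (limma adjusted p = 1.8e-07), from 7.33 CPM ± 1.12 in siCtrl to 16.2 ± 0.81. TGFBR3, a part-time proteoglycan that presents transforming growth factor beta, fell in both, with log2 changes of −0.45 under siMYCN (limma adjusted p = 0.0072) and −1.0 under siHAND2 (limma adjusted p = 6.5e-07). HSPG2, the basement-membrane proteoglycan perlecan, fell under siMYCN (−0.48, limma adjusted p = 0.0058), a call not made without siCtrl replicate 2 (limma adjusted p = 0.053). GPC5, SDC4 and SRGN had means under 1 CPM.

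Among the enzymes that build the chains, some calls were made only after rescaling, which also added higher calls over all tested genes. These went from 2202 to 3222 under siMYCN and from 1556 to 3301 under siHAND2. On the deposited values 33.7% of all tested genes were called under siMYCN and 42.7% under siHAND2. Of 7 tested linker genes, PXYLP1, a phosphatase that frees the linker for elongation, rose under siMYCN (0.44, limma adjusted p = 0.012), a call not made without siMYCN replicate 2 (limma adjusted p = 0.064) or without a filter on low values (0.063). XYLT2, a xylosyltransferase that starts the chain, fell under siHAND2 (−0.36, limma adjusted p = 0.019), a call not made without siCtrl replicate 2 (limma adjusted p = 0.061), siCtrl replicate 3 (0.063) or siHAND2 replicate 1 (0.075), nor without that filter (0.051). Of 4 tested polymerase genes, EXTL2 fell under siHAND2 (−0.63, limma adjusted p = 9.9e-05). None of the 4 was called under siMYCN on the deposited values, and 3 were called higher after rescaling, namely EXT1 (0.16, limma adjusted p = 0.033), EXT2 (0.28, limma adjusted p = 0.0019) and EXTL3 (0.28, limma adjusted p = 0.011). None of the 3 tested N-sulfation and epimerisation genes was called in either knockdown on the deposited values, and after rescaling the epimerase GLCE was called higher under siHAND2 (0.42, limma adjusted p = 1.8e-05). EXT1, EXT2, EXTL3 and GLCE are named after their values were seen.

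On the chondroitin branch that shares the linker, CHSY1 rose under siMYCN (0.37, limma adjusted p = 0.020), and after rescaling 3 of its 4 tested genes were called higher in each single knockdown. Rescaled calls over all tested genes were 3222 higher under siMYCN and 3301 higher under siHAND2. The CHSY1 call was not made without siCtrl replicate 1 (limma adjusted p = 0.11), siCtrl replicate 3 (0.051), siMYCN replicate 2 (0.087) or siMYCN replicate 3 (0.064).

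Of 5 tested O-sulfotransferases, the enzymes that add the sulfates SULF2 removes and their relatives, HS6ST2 fell under siMYCN from 16.4 CPM ± 2.00 to 10.5 ± 0.55 (−0.59, limma adjusted p = 6.9e-04). HS6ST2 is itself a 6-O-sulfotransferase, and its level under siHAND2 was 19.8 ± 0.58. HS3ST4 rose under siMYCN (0.56, limma adjusted p = 0.0013) and fell under siHAND2 (−0.55, limma adjusted p = 0.0012), and HS3ST5 rose under siHAND2 (0.68, limma adjusted p = 2.6e-04). Among 10 sulfate donor and precursor genes, SLC35D1, a transporter of UDP-sugars, fell under siHAND2 (−0.58, limma adjusted p = 3.2e-04) and PAPSS2, a synthase of the sulfate donor, rose (0.35, limma adjusted p = 0.018), with none called under siMYCN and 2 called higher there after rescaling. The PAPSS2 call was not made without siCtrl replicate 1 (limma adjusted p = 0.090), siHAND2 replicate 1 (0.056) or siHAND2 replicate 2 (0.051). Neither of the 2 sulfatase-activation genes was called in either knockdown, nor any of the 3 tested genes for release of proteoglycans from the surface. Beside these counts, 33.7% of all tested genes were called under siMYCN and 42.7% under siHAND2. With rescaling, the higher calls over all tested genes under siMYCN went from 2202 to 3222.

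Over all tested genes 17.4% were called higher and 16.3% lower under siMYCN. In lysosomal degradation, 3 of 7 tested genes rose there and none fell. These included HGSNAT, the acetyltransferase lost in a form of Sanfilippo disease (0.77, limma adjusted p = 6.0e-05), and SGSH, a heparan N-sulfatase (0.53, limma adjusted p = 6.8e-04). In siHAND2 the iduronate sulfatase IDS rose from 25.6 CPM ± 3.13 to 47.3 ± 11.2 (0.84, limma adjusted p = 8.2e-05) and the glucuronidase GUSB fell (−0.55, limma adjusted p = 0.0014). In all, 2 of the 7 were called higher and 1 lower under siHAND2, beside 12.3% and 30.4% of all tested genes. Of 5 tested cytoplasmic partners of syndecans, SDCBP, the adaptor syntenin, rose under siMYCN (0.48, limma adjusted p = 0.0046).

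Of the 10 tested heparin-binding ligands, 3 rose and 2 fell under siMYCN, and 1 rose and 6 fell under siHAND2 (5 after rescaling, with 2 rising). Beside these, 17.4% of all tested genes were called higher and 16.3% lower under siMYCN, and 12.3% and 30.4% under siHAND2. WNT11, a Wnt ligand, fell under siHAND2 from 6.66 CPM ± 0.94 to 1.23 ± 0.24 (−1.78, limma adjusted p = 7.4e-11). PTN, the growth factor pleiotrophin, fell under siHAND2 from 4.98 ± 0.36 to 1.60 ± 0.17 (−1.20, limma adjusted p = 9.8e-09) and rose under siMYCN to 7.14 ± 0.54 (0.44, limma adjusted p = 0.0048). The axon guidance ligands SLIT2 and SLIT3 rose under siMYCN, by 0.59 (limma adjusted p = 4.7e-04) and 0.47 (limma adjusted p = 0.0097). SLIT3 fell under siHAND2, from 116 CPM ± 13.2 to 61.7 ± 9.57 (−0.91, limma adjusted p = 8.3e-06), and its call under siMYCN was not made without siCtrl replicate 3 (limma adjusted p = 0.074) or siMYCN replicate 1 (0.068), nor without a filter on low values (0.052).

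Of the 14 tested receptors that use heparan sulfate as a co-receptor, 5 rose and 2 fell under siMYCN, and 4 rose and 6 fell under siHAND2. The shares of all tested genes called higher and lower were 17.4% and 16.3% under siMYCN, and 12.3% and 30.4% under siHAND2. ALK, the receptor tyrosine kinase mutated in familial neuroblastoma, stood at 38.1 CPM ± 1.46 in siCtrl, 163 ± 3.78 under siMYCN, 11.3 ± 0.72 under siHAND2 and 20.3 ± 2.44 with both siRNAs. Its log2 change was 2.07 under siMYCN (limma adjusted p = 6.2e-13) and −1.67 under siHAND2 (limma adjusted p = 7.9e-12). NRP1, a receptor for semaphorin and vascular endothelial growth factor, rose under siMYCN from 9.87 CPM ± 1.26 to 49.7 ± 5.99 (2.22, limma adjusted p = 7.4e-11) and fell under siHAND2 to 6.51 ± 0.80 (−0.53, limma adjusted p = 0.0065). ROBO1, a receptor for SLIT ligands, rose under siHAND2 from 60.0 CPM ± 6.74 to 145 ± 13.2 (1.27, limma adjusted p = 7.6e-09). ALK, NRP1, FGFR1, PTN, SLIT3 and HS3ST4 were each called higher under siMYCN and lower under siHAND2, as SDC2 was, in comparisons that share the siCtrl libraries.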

How the data were processed

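RNA sequencing of 12 IMR32 libraries was analysed from a table of CPM values that the authors deposited for 27514 genes, each sample in a column of its own. Per the submitters' processing notes, STAR 2.5.1 and Partek were used with hg19. How reads were counted, with which annotation, strand setting or filter, is not given in the sources used here. Samples were grouped by their titles. A constant of 0.0001 stands in every deposited value. Divided by the CPM worth of 1 read, values were whole for 88.5 to 90.1% of entries under 20 reads and for 80.3 to 81.6% of entries from 20 to 200 reads (tolerance 0.05), so the table was not treated as counts, and the CPM worth of 3 reads covers counting error only. The 95% intervals of log2 changes are limma's, from the spread between libraries.

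Values were analysed as log2(CPM + 1), which understates the change of low genes, for 12680 genes with a mean of at least 1 CPM. A model of the 4 groups was fitted to all libraries with limma 3.58.1 in R 4.3.3 (eBayes with trend, 8 residual degrees of freedom), two-sided, with Benjamini-Hochberg adjustment over all tested genes, and was tested on simulated data. Called means an adjusted p under 0.05. Rescaling divided each library by the median, over genes averaging at least 5 CPM, of its ratios to the geometric mean of all libraries. The other alternatives were no filter, a filter at a mean of 5 CPM, a pseudocount of 0.1, equal sums of the listed genes in each library, only the compared groups, no trend, the replicate number as a block (also with rescaling), an adjusted p under 0.01, an absolute log2 change of at least 1, and each library left out in turn. The filter was applied anew after scaling or leaving out a library. In these fits, and in those with another or no filter, the number of tested genes can differ from 12680.

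The libraries of a group differed by more than sampling noise (mean chi-square per gene 3.35 to 37.8), so none was counted as a duplicate. As a check of pairing, deviations of same-numbered libraries from their group means correlated at 0.15 to 0.44 between siCtrl and siMYCN and at 0.14 to 0.33 between siMYCN and siHAND2, all 3 pairs over 0.1 in each, so the replicate number of the titles was taken to pair these groups. In the other comparisons of groups not all 3 pairs were over 0.1 (−0.074 to 0.42 for siCtrl and siHAND2), so pairing there was left undecided. The main fit has no block, so its p-values for siMYCN against siCtrl and for siHAND2 against siMYCN leave this pairing out. With the block, 4926 genes in place of 4273 were called under siMYCN, and 6140 in place of 5411 under siHAND2.

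The members and lists were chosen with earlier results of these data known. Named genes are the 10 members, MYCN, HAND2, up to 2 called genes with the largest change per list and single knockdown, and the 5 genes with the highest Pearson correlation with SULF2. Gene starts are the gene boundaries listed in the deposited table, and the upstream sequences were read from the GRCh37 genome at these. Transcript lengths come from GENCODE annotation on GRCh37.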

Additional observations from a re-analysis of the deposited data

Results flagged for a closer look

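These results stand out because the effect of one siRNA differed with the other present, by the interaction term of the limma fit (combined minus siMYCN minus siHAND2 plus siCtrl, on the log2 scale). Among the members, SDC2 had an interaction of −1.17 (limma adjusted p = 1.1e-04): its level under siMYCN was 222% of siCtrl, and with the HAND2 siRNA also present it was 34.3%. GPC6 had an interaction of −0.87 (limma adjusted p = 0.0034), with 121%, 82.6% and 53.6% of siCtrl under siMYCN, siHAND2 and the combined knockdown.

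Of the 78 tested genes of the heparan sulfate lists, 4 (5.13%) had a called interaction, near the 4.01% of all tested genes. ALK was at −1.28 (limma adjusted p = 1.4e-05) and NRP1 at −1.63 (limma adjusted p = 5.0e-05), both higher under siMYCN than in any other group. SLIT2 was at −0.91 (limma adjusted p = 0.0023). VEGFA, the angiogenic growth factor, which was named after its values were seen, went the other way at 0.78 (limma adjusted p = 0.014), with 6.29 CPM in siCtrl, 4.35 under siMYCN, 6.77 under siHAND2 and 8.74 in the combined knockdown. The VEGFA call was not made without a filter on low values (limma adjusted p = 0.12) or without siHAND2 replicate 2 (limma adjusted p = 0.065).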

How the results depend on the processing

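SULF2 kept its direction in both single knockdowns under each of the 23 alternatives run, from −1.04 to −0.84 under siMYCN, and was called in 22 of them there (its change was under 1 on the log2 scale in the exception). With an absolute log2 change of at least 1 required, the called members numbered 1 under siMYCN, 3 under siHAND2, 2 under siHAND2 against siMYCN, 3 in the combined knockdown against siMYCN, 0 against siHAND2 and 1 in the interaction. Over all 12680 tested genes the calls at that change were 290, 507, 407, 966, 213 and 69 in the same order. With each library left out in turn, the members called were 4 to 5 under siMYCN, 5 to 7 under siHAND2, 5 to 7 under siHAND2 against siMYCN, 6 in the combined knockdown against siMYCN, 3 to 5 against siHAND2 and 2 to 4 in the interaction. The highest value in each of the last pair came without replicate 1 of the combined knockdown. Calls over all tested genes in the left-out fits were 3198 to 5758, 4309 to 6948, 3257 to 6087, 6417 to 8963, 3906 to 6957 and 261 to 4445, in the same order.

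Changes of sign concerned uncalled or untested values near 0. The untested departure of SULF2 from the sum of its single changes went to 0.13 under rescaling, with −0.29 to 0.32 over the left-out libraries. GPC1 under siMYCN went to 0.023 under scaling to the listed sum. SDC3 under siHAND2 went to 0.12 under rescaling (with or without the replicate block) and 0.093 under the listed sum, with −0.13 to 0.13 over the left-out libraries. SDC3 in the combined knockdown against siMYCN went to 0.23 under rescaling, with or without the block, and 0.18 under the listed sum, with −0.16 to 0.093 over the left-out libraries, and its interaction to 0.11, with or without the block, and 0.087, with −0.17 to 0.10. Against siHAND2, SDC2 went to 0.11 under rescaling, with or without the block, and 0.13 under the listed sum, with −0.18 to 0.024 over the left-out libraries, and GPC2 ranged from −0.076 to 0.32 over the left-out libraries. The causes were not tested.

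With the replicate number as a block, GPC6 under siHAND2 (limma adjusted p = 0.033) and SDC3 in the combined knockdown against siHAND2 (limma adjusted p = 0.044) were also called, and no other member's call changed in the tested comparisons beside that of GPC6 under siMYCN. Whether the numbers pair these groups was left undecided. Over all groups 11 of 18 same-numbered and 6 of 36 differently numbered correlations exceeded 0.1.

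Calls over all tested genes moved by over 1.5 times under some settings. In siMYCN, 4273 became 6963 with only the compared groups, 6474 with block and rescaling, 2761 at an adjusted p under 0.01 and 290 at an absolute log2 change of at least 1. In siHAND2, 5411 became 507 at that change. In siHAND2 against siMYCN, 4443 became 6730 with only the compared groups, 2890 at an adjusted p under 0.01 and 407 at that change. The combined knockdown went from 7471 to 966 against siMYCN, 5104 to 213 against siHAND2 and 8551 to 2110 against siCtrl at that change. The interaction went from 508 to 154 without a filter, 780 with rescaling, 796 with the listed sum, 1282 with the block, 1264 with block and rescaling, 169 at an adjusted p under 0.01, 69 at that change and 261 to 4445 with a library left out.

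Depth limits SULF1 and GPC4, which have at most 7 and 19 reads per library. With 3 libraries per group, the exact permutation test of the ratios can give no p below 0.1.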

Other observations

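The receptors for fibroblast growth factors, which need heparan sulfate for signalling, and which were described after their values were seen, differed in direction under siMYCN. FGFR1 stood at 32.5 CPM ± 1.96 in siCtrl, 49.5 ± 2.34 under siMYCN, 20.1 ± 1.2 under siHAND2 and 21.2 ± 5.0 in the combined knockdown. FGFR2 fell in both single knockdowns, with 26.7 CPM ± 1.15 in siCtrl, 17.5 ± 1.25 under siMYCN, 11.03 ± 1.26 under siHAND2 and 5.61 ± 1.41 in the combined knockdown (limma adjusted p = 0.0013 and 6.6e-08 under siMYCN and siHAND2). FGFR4 fell under siMYCN from 4.77 CPM ± 0.18 to 1.72 ± 0.27 (−1.09, limma adjusted p = 1.0e-07). Under siHAND2, FGFR1 (−0.67, limma adjusted p = 1.4e-04) and FGFR4 (−0.42, limma adjusted p = 0.0055) fell, as FGFR2 did. FGFR3 was low at 1.44 CPM ± 0.34 in siCtrl, 1.40 ± 0.19 under siMYCN, 1.78 ± 0.15 under siHAND2 and 2.40 ± 0.46 with both siRNAs, and was not called in either single knockdown (limma adjusted p = 0.95 and 0.24) but was called higher under siHAND2 after rescaling (limma adjusted p = 0.047). The heparin-binding growth factor MDK fell under siHAND2 from 167 CPM ± 8.68 to 88.0 ± 5.89 (−0.92, limma adjusted p = 5.2e-06).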
